A study of Mus musculus with 2 samples.

Results

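Solute carriers are the membrane proteins that move sugars, lactate, amino acids, metals, ions, vitamins and nucleotide sugars across the cell membrane and the membranes of internal organelles. The 139 genes described here are those of the deposited muscle table whose symbol begins with Slc and a number, without the Slc25 family of mitochondrial carriers, out of 10543 genes with a single symbol. They were picked by name and not by any measured value. Of the 139, Slc7a6os, Slc4a1ap, Slc9a3r1 and Slc9a3r2 carry the name of a carrier but encode a neighbouring gene or proteins that bind carriers, and they are counted apart as a class. The other 135 were sorted by cargo into 10 classes.

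The CR library came from mice of the hybrid strain B6C3F1 that were 26 months old and had eaten 40% fewer calories than the controls for 25 months, on a diet enriched to keep the intake of protein, minerals and vitamins, relative to body weight, close to that of the controls. The control library came from mice of the same strain and age on the control diet. Both are poly(A) RNA of thigh skeletal muscle, with 1 library per group, so no difference below has a replicate check and none has a p-value. How many mice stand behind a library is not known here. Values are FPKM, fragments relative to transcript length and to the size of the library, and the log2 ratio is that of CR FPKM + 1 over control FPKM + 1, which understates the change of genes with low values. Folds are 2 raised to that log2 ratio.

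Muscle is a main site of glucose uptake from the blood. Insulin and contraction bring the glucose carrier GLUT4 to the surface of the fibre, and the monocarboxylate carriers MCT4 and MCT1 move lactate out of fast glycolytic fibres and into oxidative ones. Amino acid carriers feed protein synthesis and the mTOR pathway, zinc carriers are split between the ZnT family, which lowers cytosolic zinc, and the ZIP family, which raises it, and the ion carriers set cell volume, pH and calcium.

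Most solute carrier transcripts, 105 of 139, lay within 2-fold in the 2 libraries, beside 8565 of the 10533 genes averaging 1 FPKM or more. Of the 7 carriers averaging 1000 FPKM or more, 0 passed 2-fold, and their median log2 ratio was -0.21. Of all genes at that level, 5.59% were at least 2-fold higher in CR and 2.24% at least 2-fold lower. Slc2a4, which encodes GLUT4, was the most abundant of the 139 at 2567 FPKM in the CR library and 2506 FPKM in the control library. The largest ratios among genes above 0 in both libraries were higher in CR and belonged to carriers of low level in the control library: the sodium, calcium and potassium exchanger Slc24a3 at 160 FPKM in CR and 9.39 FPKM in control, and the glycine and proline carrier Slc36a2 at 347 FPKM in CR and 29.7 FPKM in control. Slc1a5, the glutamine carrier ASCT2, stood at 987 FPKM in CR against 257 FPKM in control. On the lower side, Slc7a5, the leucine carrier LAT1, stood at 25.7 FPKM in CR against 104 FPKM in control. The Golgi proton exchanger Slc9a7 stood at 31.3 FPKM in CR against 117 FPKM in control. Slc24a3, Slc7a5 and Slc9a7 averaged under 100 FPKM. At that level 17.2% of all genes were at least 2-fold higher in CR and 26.7% at least 2-fold lower. In whole tissue, fewer cells of a type and less RNA per cell cannot be told apart.

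Of the 139 genes, 13 were at least 2-fold higher in CR (9.35%), 105 were within 2-fold, and 21 were at least 2-fold lower (15.1%). Over all 10533 genes whose mean reached 1 FPKM, a filter that every solute carrier passed, 8.01% were at least 2-fold higher and 10.7% at least 2-fold lower. The share of solute carriers lay near this background on the higher side and somewhat above it on the lower side. Their median log2 ratio was -0.16, against -0.03 for all genes, with 51 genes above 0 and 88 below it. Of the 34 genes past 2-fold, 16 were listed at 0 in a library, 11 of them in CR and 5 in control. Because Ttn and Neb, giant sarcomere proteins of every muscle fibre, are also listed at 0 in both libraries, an entry of 0 may be a failed estimate, and no fold is given for these genes. Among the 123 solute carriers above 0 in both libraries, 8 were at least 2-fold higher and 10 at least 2-fold lower, beside 6.15% and 6.85% of the 9844 genes above 0 in both.

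**Figure D1:**
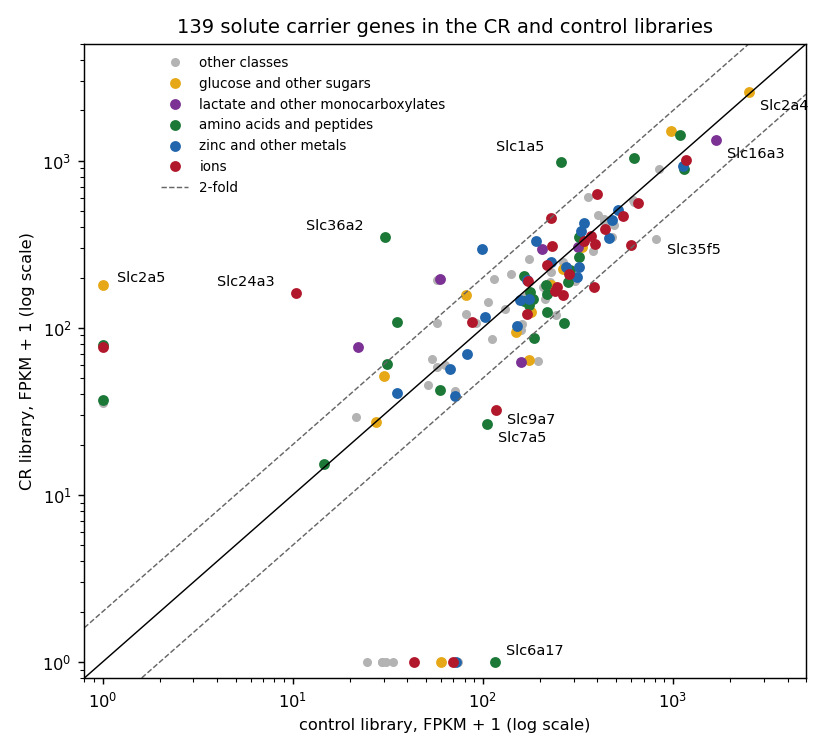
FPKM + 1 in the CR library (vertical axis) against FPKM + 1 in the control library (horizontal axis), both on log scales, for the 139 genes, coloured by cargo class, with the line of equality and dashed lines at 2-fold. Most points lie between the dashed lines, Slc2a4 sits at the top right near equality, and the points on either axis edge are the 16 genes listed at 0 in a library.

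The distance between the libraries depended on the level. Of the 38 solute carriers averaging 300 FPKM or more, 1 was at least 2-fold higher in CR (Slc1a5) and 1 at least 2-fold lower (Slc35f5), where the shares over all genes of that level were 4.29% and 2.93%. Of the 99 with a mean of 100 FPKM or more, 5 were at least 2-fold higher and 8 at least 2-fold lower, beside 4.95% and 5.29% of all genes of that level. Of the 40 with a mean under 100 FPKM, 8 were higher and 13 lower, beside 17.2% and 26.7% of all genes of that level, and these 40 include all 16 listed at 0. Summed over the 139 genes, solute carriers held 36972 FPKM in CR and 37694 FPKM in control, 0.483% and 0.563% of the FPKM of all single-symbol genes in CR and in control. Just under the 2-fold limit lay Slc41a3, a magnesium carrier, at 453 FPKM in CR and 226 FPKM in control (log2 ratio 0.998), and just past it Slc19a2, the thiamine carrier, at 118 FPKM in CR and 241 FPKM in control (log2 ratio -1.03).

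**Figure D2:**
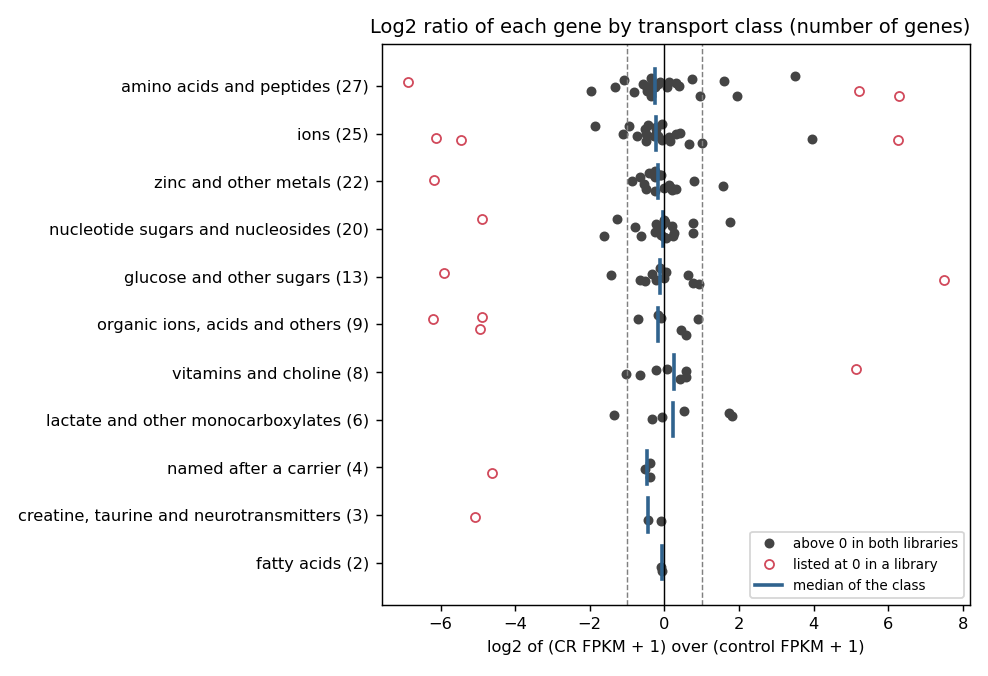
Log2 ratio of CR over control on the FPKM + 1 scale (horizontal axis) of each gene, by cargo class (rows, with the number of genes), with filled points for genes above 0 in both libraries, open points for genes listed at 0 in a library, bars for class medians and dashed lines at 2-fold. Class medians lie between -0.46, for the genes only named after a carrier, and 0.25, for vitamins and choline.

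The solute carriers past 2-fold were spread over the cargo classes, and the promoters of 5 of them are shown as examples from both directions. They are Slc2a5, Slc24a3 and Slc35b4, counted as higher in CR, and Slc16a9 and Slc9a7, which were lower. Slc2a5 is listed at 0 in control, an entry that may be a failed estimate, so its direction is uncertain. Each window runs from 250 bases before to 50 after the transcript start, 5′ to 3′, from RefSeq on the build GRCm38.p6, which differs from the mm9 build of the muscle table. Capitals mark matches, on either strand, to 5 short promoter motifs: the GC box GGGCGG, the CCAAT box CCAAT, the TATA box TATAAA, the E-box CACGTG and the amino acid response element TGATGNAA.
Slc2a5, chr4:150119094-150119393, plus strand: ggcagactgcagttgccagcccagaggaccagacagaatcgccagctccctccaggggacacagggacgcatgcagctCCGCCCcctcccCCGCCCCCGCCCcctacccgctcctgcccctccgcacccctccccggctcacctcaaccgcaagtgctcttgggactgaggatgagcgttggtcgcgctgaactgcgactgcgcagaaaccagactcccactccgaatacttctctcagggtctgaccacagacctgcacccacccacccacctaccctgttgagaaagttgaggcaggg
Slc24a3, chr2:145167525-145167824, plus strand: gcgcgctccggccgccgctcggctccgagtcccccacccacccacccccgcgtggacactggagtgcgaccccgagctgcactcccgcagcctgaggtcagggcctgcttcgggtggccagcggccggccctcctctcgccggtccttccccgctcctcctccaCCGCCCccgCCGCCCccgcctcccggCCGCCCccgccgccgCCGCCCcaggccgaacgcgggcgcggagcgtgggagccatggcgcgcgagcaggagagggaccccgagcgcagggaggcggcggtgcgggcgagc
Slc35b4, chr6:34177005-34177304, minus strand: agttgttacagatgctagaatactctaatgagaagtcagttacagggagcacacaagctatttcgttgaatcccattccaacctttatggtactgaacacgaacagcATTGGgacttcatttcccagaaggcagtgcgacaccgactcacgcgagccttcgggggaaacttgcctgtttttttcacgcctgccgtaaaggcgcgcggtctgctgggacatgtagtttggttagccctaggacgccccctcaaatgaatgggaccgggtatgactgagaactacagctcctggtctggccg
Slc16a9, chr10:70245026-70245325, plus strand: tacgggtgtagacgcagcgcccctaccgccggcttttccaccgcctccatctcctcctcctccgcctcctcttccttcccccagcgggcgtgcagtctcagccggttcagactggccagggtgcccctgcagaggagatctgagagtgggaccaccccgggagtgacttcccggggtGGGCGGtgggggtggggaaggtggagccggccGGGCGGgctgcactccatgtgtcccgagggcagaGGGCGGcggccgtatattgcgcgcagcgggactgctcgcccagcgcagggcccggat
Slc9a7, chrX:20291778-20292077, minus strand: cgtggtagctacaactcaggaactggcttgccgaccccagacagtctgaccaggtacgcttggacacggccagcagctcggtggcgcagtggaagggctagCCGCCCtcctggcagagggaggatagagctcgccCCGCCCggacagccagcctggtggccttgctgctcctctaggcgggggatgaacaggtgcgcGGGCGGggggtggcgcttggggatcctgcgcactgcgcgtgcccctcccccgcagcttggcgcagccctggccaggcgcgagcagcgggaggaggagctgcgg

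In those windows, Slc2a5 held 3 GC boxes, Slc24a3 4, Slc16a9 3 and Slc9a7 3, while the Slc35b4 window held 1 CCAAT box and no GC box. Slc24a3 has another window, not printed here, at chr2:145242361-145242660, which held 2 CCAAT boxes and no GC box. A promoter window was found by symbol for 107 of the 139 genes, 146 windows in all as some genes have several starts. The GC box occurred in 67.8% of these windows, in 63.2% of the 9731 windows of all genes of the muscle table that matched and in 35.7% of all 32851 windows. It occurred in 6 of the 9 windows of genes at least 2-fold higher in CR and in 14 of the 20 windows of genes at least 2-fold lower, so it did not separate the directions. The E-box was in 12.3% of the solute carrier windows and 10.3% of windows of the table's genes, the CCAAT box in 30.1% and 36.9%, the TATA box in 8.90% and 7.14%, and the amino acid response element in 2.05% and 2.18%. A match describes letters and not a site that is bound.

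Glucose carriers were led by Slc2a4 (chromosome 11, 69755767 to 69761722, minus strand, mm9), at 2567 FPKM in CR and 2506 FPKM in control, a log2 ratio of 0.03. Slc37a4, which carries glucose 6-phosphate into the endoplasmic reticulum, followed at 1514 FPKM in CR and 980 FPKM in control, a fold of 1.54. Slc2a1, the widely expressed GLUT1, stood at 224 FPKM in CR and 263 FPKM in control. These carriers of high level lay within 2-fold. GLUT12, encoded by Slc2a12, had 179 FPKM in CR and 227 FPKM in control, and its locus overlaps Tbpl1 on the opposite strand, whose reads cannot be separated because the library kit is not described as keeping strand. Slc2a3, the high-affinity GLUT3 of neurons and white blood cells, stood at 63.6 FPKM in CR and 173 FPKM in control, 2.69-fold lower in CR. Slc2a5, the fructose carrier GLUT5 (chromosome 4, 149493453 to 149518277, plus strand), was at 179 FPKM in CR and listed at 0 in control.

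Across the 13 sugar carriers 10 stayed within 2-fold, 1 was at least 2-fold higher in CR and 2 were at least 2-fold lower, beside 8.01% and 10.7% of all genes. Of the 11 above 0 in both libraries, 0 were higher and 1 lower, beside 6.15% and 6.85% of all such genes. The class median of the log2 ratio was -0.13. The second lower gene was Slc37a2, a sugar phosphate exchanger, listed at 0 in CR and at 59.1 FPKM in control. Slc45a4 stood at 302 FPKM in CR and 330.3 FPKM in control. Slc50a1, a sugar carrier of the Golgi, stood at 155 FPKM in CR and 80.5 FPKM in control, just under 2-fold. Of 16 genes of GLUT4 vesicle traffic, whose proteins carry GLUT4 to the surface, 13 transcripts stayed within 2-fold. At least 2-fold higher in CR was 1 and at least 2-fold lower were 2, near the 8.01% and 10.7% of all genes. The median log2 ratio of the list was -0.05. The lower genes were Tbc1d1 and Rab13, the latter at 41.4 FPKM in CR and 123 FPKM in control. The Rab GTPase activating protein Tbc1d1 stood at 372 FPKM in CR and 886 FPKM in control, while its paralog Tbc1d4 stood at 811 FPKM in CR and 566 FPKM in control. The higher gene was Tusc5, a GLUT4 traffic protein of fat and muscle, at 133 FPKM in CR and 50.5 FPKM in control. Hk2, the hexokinase that traps glucose in muscle, had 1355 FPKM in CR and 1662 FPKM in control.

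The main lactate carriers lay within 2-fold. Slc16a3, the MCT4 of fast fibres (chromosome 11, 120809388 to 120822149, plus strand), stood at 1334 FPKM in CR and 1677 FPKM in control, a log2 ratio of -0.33. Slc16a1, the MCT1 of oxidative fibres (chromosome 3, 104442591 to 104462385, plus strand), stood at 294 FPKM in CR and 202 FPKM in control, a log2 ratio of 0.54. The level of MCT4 was thus above that of MCT1 in both libraries. Slow fibre markers were at least 2-fold higher in CR in 8 of 8 genes, beside 8.01% of all genes. They summed to 132105 FPKM in CR and 15418 FPKM in control. Fast fibre markers had a median log2 ratio of 0.73, with 6 of 7 above 0 and 1 at least 2-fold higher. They summed to 998505 FPKM in CR and 577130 FPKM in control. The part of the slow and fast fibre markers in the lactate carrier values was not tested.

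Other monocarboxylate carriers differed more. Of 6 genes of the Slc16 family, 2 were at least 2-fold higher in CR and 1 at least 2-fold lower, beside 8.01% and 10.7% of all genes. Slc16a6 (MCT7) stood at 194 FPKM in CR and 58.1 FPKM in control, a fold of 3.30, and Slc16a9 (MCT9) at 61.4 FPKM in CR and 158 FPKM in control, 2.55-fold lower in CR. The aromatic amino acid carrier Slc16a10 had 303 FPKM in CR and 316 FPKM in control. Bsg, basigin, the glycoprotein that takes MCT1 and MCT4 to the membrane, stood at 4530 FPKM in CR and 6076 FPKM in control, and its relative Emb, embigin, was listed at 0 in CR and at 262 FPKM in control. Ldha, which makes lactate in glycolytic fibres, had 26180 FPKM in CR and 18443 FPKM in control, and Ldhb, the form of oxidative tissue, 4585 FPKM in CR and 2257 FPKM in control, a fold of 2.03.

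**Figure D3:**
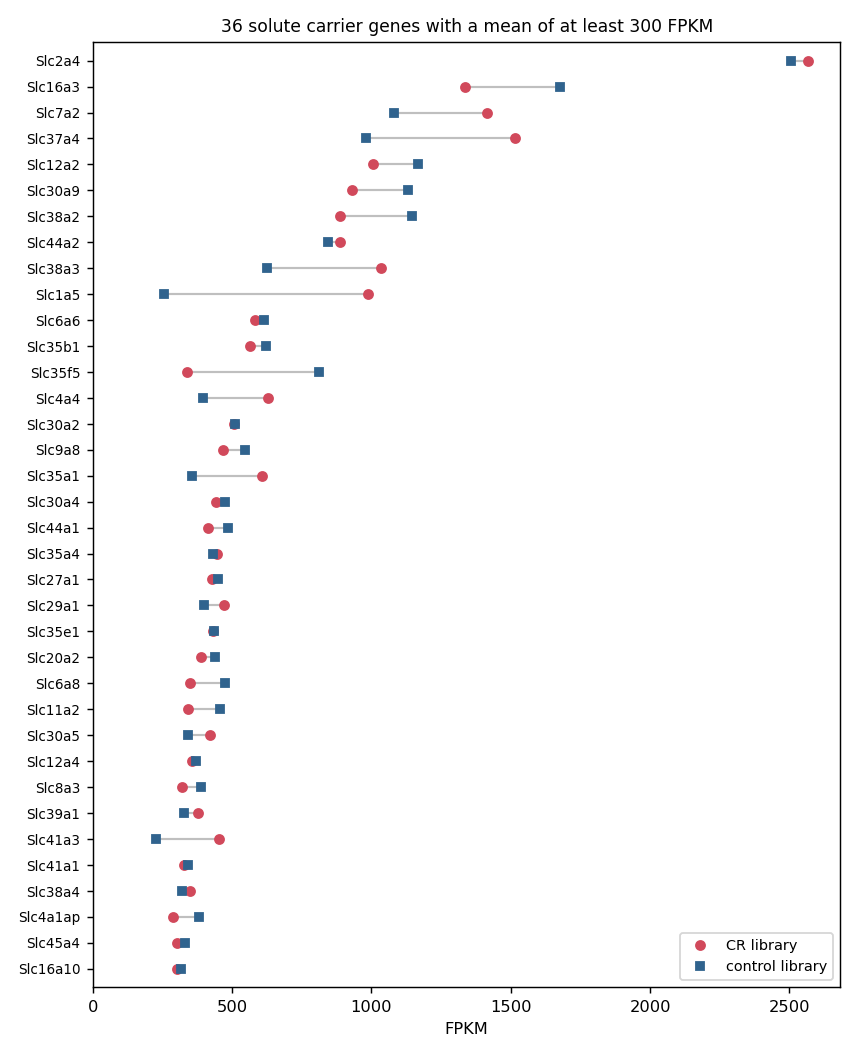
FPKM (horizontal axis, linear) of 36 of the 38 genes averaging 300 FPKM or more in the CR library (circles) and the control library (squares), ordered by mean. The symbols nearly coincide for Slc2a4, Slc30a2 and Slc35e1, and the widest gaps are those of Slc1a5, at 987 FPKM in CR and 257 FPKM in control, Slc37a4 and Slc35f5.

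Amino acid and peptide carriers formed the largest class. Of 27 genes, 18 stayed within 2-fold, 5 were at least 2-fold higher in CR and 4 at least 2-fold lower, beside 8.01% and 10.7% of all genes. Of the 24 above 0 in both libraries, 3 were at least 2-fold higher and 3 at least 2-fold lower, beside 6.15% and 6.85% of all such genes. Their median log2 ratio was -0.26. The most abundant was Slc7a2, a carrier of arginine and lysine, at 1416 FPKM in CR and 1082 FPKM in control. The sodium-coupled glutamine carriers of the SNAT family came next, with Slc38a2 at 888 FPKM in CR and 1144 FPKM in control, and Slc38a3 at 1034 FPKM in CR and 624 FPKM in control. The 6 SNAT genes listed all lay within 2-fold. Slc38a4 stood at 349 FPKM in CR and 319 FPKM in control, and Slc38a9, the arginine sensor of the lysosome, at 124 FPKM in CR and 217 FPKM in control.

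The glutamine carrier ASCT2, Slc1a5 (chromosome 7, 17366695 to 17383827, plus strand), was 3.83-fold higher in CR and the only solute carrier averaging 300 FPKM or more to pass 2-fold on the higher side. Slc36a2 (chromosome 11, 54971828 to 54998579, minus strand), a proton-coupled carrier of glycine and proline that is also used as a brown adipocyte marker, was 11.4-fold higher in CR. Its neighbour and paralog Slc36a1, a lysosomal carrier, stood at 179 FPKM in CR and 214 FPKM in control. Of 9 white adipocyte markers, 8 were at least 2-fold higher in CR, beside 8.01% of all genes, with Adrb3 listed at 0 in control. The 9 markers summed to 18783 FPKM in CR and 3965 FPKM in control. Slc7a10, the small neutral amino acid carrier ASC-1 that marks white adipocytes, did not follow them, at 41.4 FPKM in CR and 58.6 FPKM in control, and its locus overlaps Lrp3 on the opposite strand. The part of fat tissue in the values of Slc1a5 and Slc36a2 was not tested.

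Among the leucine carriers, LAT1 passed 2-fold. Its gene Slc7a5 (chromosome 8, 124405046 to 124431586, minus strand) was 3.93-fold lower in CR. Slc3a2, the heavy chain that LAT1 needs at the membrane, stood at 188 FPKM in CR and 280 FPKM in control, within 2-fold, and its locus overlaps Snhg1 on the opposite strand. The other light chains that pair with it were closer, with Slc7a8 (LAT2) at 135 FPKM in CR and 174 FPKM in control and Slc7a6 at 264 FPKM in CR and 320 FPKM in control. Slc43a1 and Slc43a2, leucine carriers that need no heavy chain, stood at 222 and 158 FPKM in CR, against 287 and 217 FPKM in control.

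Among the remaining amino acid and peptide carriers, the glutamate carrier Slc1a1 was 2.12-fold lower in CR (86.2 FPKM in CR, 184 FPKM in control) and the lysosomal histidine and peptide carrier Slc15a4 2.50-fold lower (106 FPKM in CR, 267 FPKM in control). Slc15a5 stood at 107 FPKM in CR and 34.4 FPKM in control, a fold of 3.05. The glial glutamate carrier Slc1a3 was at 77.4 FPKM in CR and listed at 0 in control, and the peptide carrier Slc15a2 at 36.2 FPKM in CR and listed at 0 in control. Slc6a17, a vesicular amino acid carrier of neurons, was listed at 0 in CR and at 115 FPKM in control. Of 11 measured genes of the amino acid stress response, 8 stayed within 2-fold. At least 2-fold higher in CR were 2 and at least 2-fold lower was 1, beside 8.01% and 10.7% of all genes. Of the 2 higher genes, 1 was Psat1, at 125 FPKM in CR and listed at 0 in control. The log2 ratio was above 0 for 5 of the 11, among them Atf5 at 533 FPKM in CR and 271 FPKM in control, and below 0 for 6. The transcription factor Atf4, which induces several of these carriers, stood at 966 FPKM in CR and 1127 FPKM in control, and its target Sesn2 at 18.6 FPKM in CR and 79.5 FPKM in control. Nupr1, a stress protein of that response, stood at 599 FPKM in CR and 78.0 FPKM in control.

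**Figure D4:**
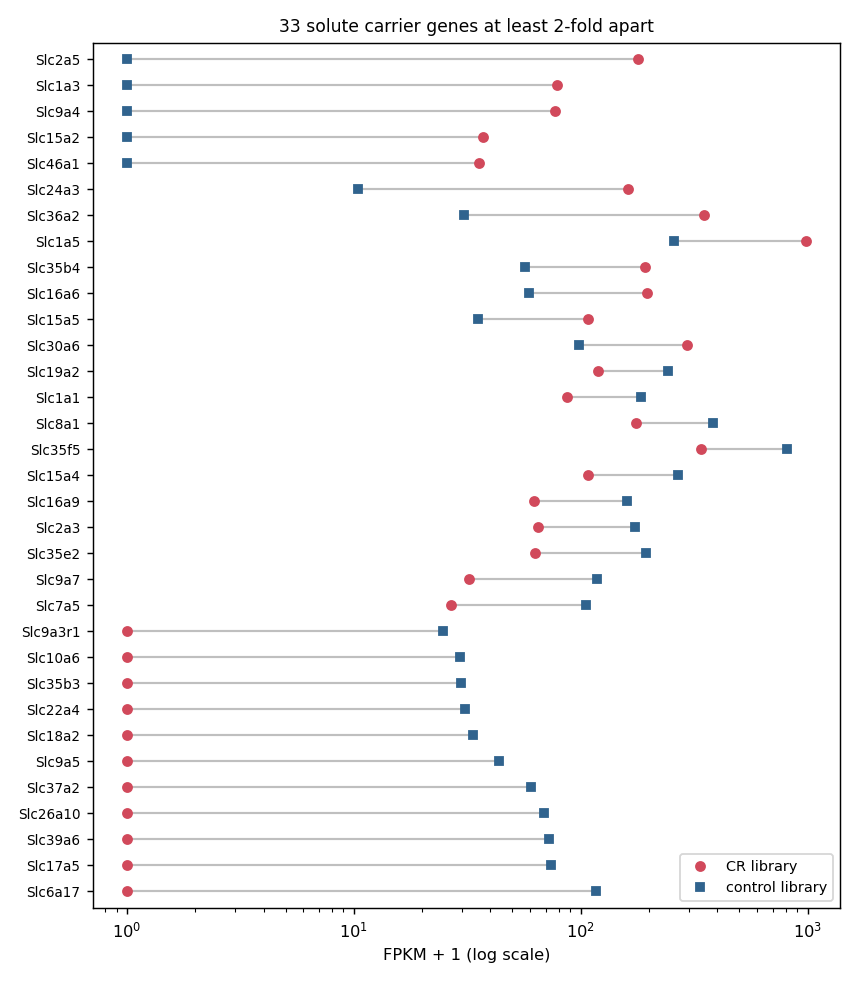
FPKM + 1 (horizontal axis, log scale) of 33 of the 34 genes at least 2-fold apart, in the CR library (circles) and the control library (squares), ordered from the highest to the lowest log2 ratio. Genes higher in CR are at the top, the 21 lower in CR at the bottom, and symbols at 1 are genes listed at 0.

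Carriers of creatine and taurine, small molecules that muscle holds at high concentration, lay within 2-fold. The taurine carrier Slc6a6 stood at 580 FPKM in CR and 613 FPKM in control and the creatine carrier Slc6a8 at 347 FPKM in CR and 474 FPKM in control. Slc18a2, the vesicular monoamine carrier, was listed at 0 in CR and at 32.7 FPKM in control. The fatty acid carriers Slc27a1 and Slc27a4 were near equal, at 427 and 216 FPKM in CR, against 449 and 228 FPKM in control.

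Of 22 carriers of zinc and other metals, 20 stayed within 2-fold, 1 was at least 2-fold higher in CR and 1 at least 2-fold lower, beside 8.01% and 10.7% of all genes. Of the 21 above 0 in both libraries, 1 was higher and 0 lower, beside 6.15% and 6.85% of all such genes. The median log2 ratio of all 22 was -0.17. In the ZnT family the most abundant was Slc30a9 at 929 FPKM in CR and 1131 FPKM in control. Slc30a2 was at 506 FPKM in CR and 509.6 FPKM in control, a value that shares 6963 bases with the gene Extl1 on the opposite strand and is uncertain for that reason. Slc30a4 stood at 441 FPKM in CR and 474 FPKM in control, and Slc30a1, the zinc exporter of the cell surface, at 229 FPKM in CR and 273 FPKM in control.

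Slc30a6 (chromosome 17, 74794972 to 74823569, plus strand), the ZnT6 of the Golgi, stood at 294 FPKM in CR and 97.7 FPKM in control, a fold of 2.99. Slc30a5, the ZnT5 with which it forms a dimer, stood at 422 FPKM in CR and 341 FPKM in control. Among 10 ZIP genes the most abundant was Slc39a1 at 377 FPKM in CR and 326 FPKM in control. Slc39a14, a zinc and iron importer that inflammation induces, stood at 200.3 FPKM in CR and 313 FPKM in control, and Slc39a6 was listed at 0 in CR and at 71.2 FPKM in control. Slc39a6 was the only ZIP gene listed that passed 2-fold.

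Iron and copper carriers lay within 2-fold. Slc11a2, the divalent metal carrier DMT1, stood at 342 FPKM in CR and 457 FPKM in control, and Slc40a1, the iron exporter ferroportin, at 329 FPKM in CR and 190.0 FPKM in control. The copper carriers Slc31a1 and Slc31a2 stood at 116 and 55.5 FPKM in CR, against 102 and 66.1 FPKM in control. Of the metal buffers and sensors, the transferrin receptor Tfrc stood at 1368 FPKM in CR and 505 FPKM in control, a fold of 2.70, and the ferritin chain Fth1 at 17805 FPKM in CR and 22453 FPKM in control. The copper pump Atp7a stood at 48.4 FPKM in CR and 174 FPKM in control. Erythroid markers summed to 51923 FPKM in CR and 19932 FPKM in control over 4 measured genes of 11. Most of that sum was Hba-a1, at 48110 FPKM in CR and 15925 FPKM in control. Alas2 stood at 512 FPKM in CR and 264 FPKM in control, and Hbb-b2 was near equal at 2598 and 2514 FPKM. Spnb1 was lower in CR, at 704 FPKM against 1230 FPKM in control. The part of the erythroid markers in the iron carrier values was not tested.

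Of 25 ion carriers, 2 were at least 2-fold higher in CR and 4 at least 2-fold lower, beside 8.01% and 10.7% of all genes. Of the 22 above 0 in both libraries, 1 was higher and 2 lower, beside 6.15% and 6.85% of all such genes. The log2 ratios of all 25 had a median of -0.22, with 8 above 0 and 17 below it. Over all 139 solute carriers 51 were above 0 and 88 below it. The most abundant was Slc12a2, the sodium, potassium and chloride carrier NKCC1 that regulates cell volume, at 1006 FPKM in CR and 1166 FPKM in control. All 4 cation and chloride carriers of the Slc12 family listed lay within 2-fold, with Slc12a4 at 355 FPKM in CR and 369 FPKM in control. Wnk1, a kinase that acts on them, stood at 1023 FPKM in CR and 2107 FPKM in control, 2.06-fold lower in CR. The bicarbonate carrier Slc4a4 stood at 628 FPKM in CR and 396 FPKM in control, a fold of 1.59.

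Calcium exchangers split. Slc24a3 (chromosome 2, 145068347 to 145467861, plus strand) was 15.5-fold higher in CR, from the lowest control value of any solute carrier above 0 there. The sodium and calcium exchanger NCX1 of heart and muscle, Slc8a1 (chromosome 17, 81772445 to 82137717, minus strand), stood at 175 FPKM in CR and 381 FPKM in control, 2.17-fold lower in CR. Slc8a3, the NCX3 of skeletal muscle, stood at 319 FPKM in CR and 386 FPKM in control.

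Among proton exchangers, Slc9a7 of the Golgi passed 2-fold. Slc9a7 (chromosome X, 19681986 to 19868890, minus strand) was 3.65-fold lower in CR, and Slc9a8, also of the Golgi, stood at 467 FPKM in CR and 544 FPKM in control. Slc9a4 was at 76.2 FPKM in CR and listed at 0 in control, while Slc9a5 was listed at 0 in CR and at 42.6 FPKM in control. Slc26a10 was listed at 0 in CR and at 68.2 FPKM in control. The phosphate carrier Slc20a2 stood at 387 FPKM in CR and 438 FPKM in control, and the magnesium carrier Slc41a1 at 329 FPKM in CR and 341 FPKM in control. Of the sodium pump, whose gradient drives many of these carriers, and its partners, 3 of 10 genes were at least 2-fold higher in CR and 0 at least 2-fold lower, beside 8.01% and 10.7% of all genes.

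Carriers of nucleotide sugars and nucleosides had a median log2 ratio of -0.04. Of 20 genes, 1 was at least 2-fold higher in CR and 3 at least 2-fold lower, beside 8.01% and 10.7% of all genes. Of the 19 above 0 in both libraries, 1 was higher and 2 lower, beside 6.15% and 6.85% of all such genes. Slc35f5, of no cargo stated here, stood at 338 FPKM in CR and 811 FPKM in control (chromosome 1, 127457593 to 127492261, plus strand), 2.39-fold lower in CR, and Slc35e2 at 62.0 FPKM in CR and 194 FPKM in control, 3.09-fold lower. Slc35b4, which brings UDP-xylose and UDP-N-acetylglucosamine into the Golgi and endoplasmic reticulum, stood at 191 FPKM in CR and 56.0 FPKM in control, a fold of 3.37. The abundant Slc35b1 and Slc35e1 stood at 563 and 432 FPKM in CR, against 621 and 435 FPKM in control, and Slc35a4 had 446 FPKM in CR and 432 FPKM in control. The sialic acid donor carrier Slc35a1 stood at 609 FPKM in CR and 356 FPKM in control, a fold of 1.71. Slc35b3, a carrier of the sulfate donor PAPS, was listed at 0 in CR and at 28.6 FPKM in control. Slc29a1, the nucleoside and adenosine carrier ENT1, stood at 471 FPKM in CR and 400.3 FPKM in control.

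Among 8 vitamin and choline carriers, Slc44a2, a choline carrier, was the most abundant at 889 FPKM in CR and 845 FPKM in control, and Slc44a1 stood at 413 FPKM in CR and 486 FPKM in control. The thiamine carrier Slc19a2 was 2.04-fold lower in CR. Slc46a1, the proton-coupled folate carrier, was at 34.5 FPKM in CR and listed at 0 in control. In the class of organic ions, acids and others, 6 of 9 genes lay within 2-fold and the remaining 3 were listed at 0 in CR. These were the lysosomal sialic acid carrier Slc17a5 (73.2 FPKM in control), the ergothioneine carrier Slc22a4 (29.9 FPKM in control) and the steroid sulfate carrier Slc10a6 (28.5 FPKM in control). The most abundant of the class was Slc22a23, at 245 FPKM in CR and 263 FPKM in control. Of the 4 genes only named after a carrier, the scaffold Slc9a3r1 was listed at 0 in CR and at 23.6 FPKM in control, and the most abundant, Slc4a1ap, stood at 288 FPKM in CR and 380 FPKM in control.

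**Figure D5:**
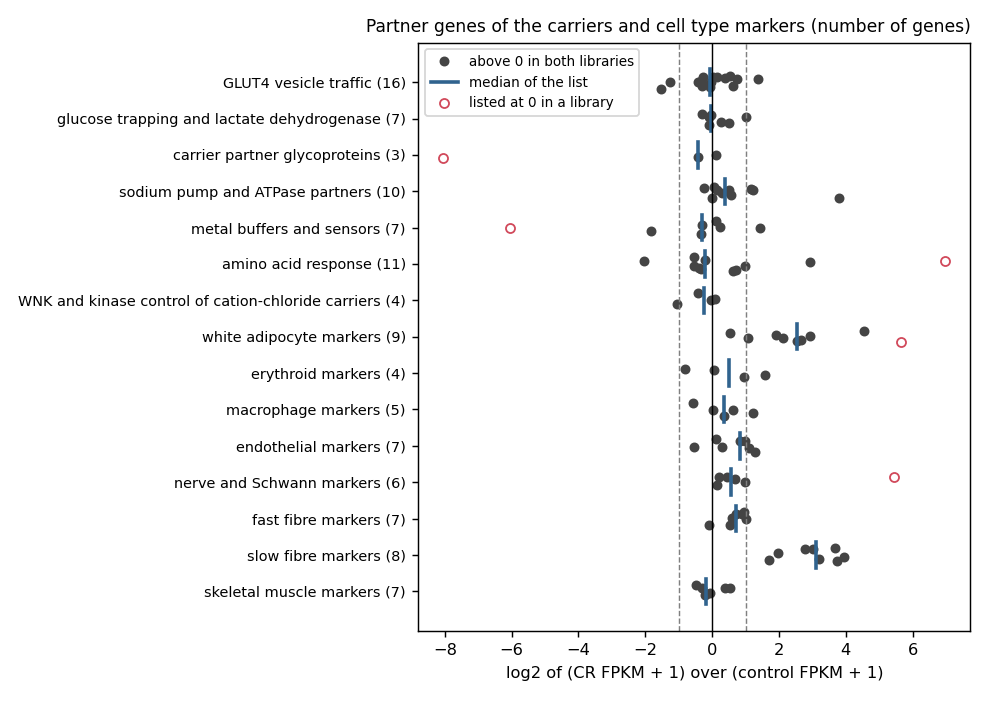
Log2 ratio of CR over control on the FPKM + 1 scale (horizontal axis) of each gene in 7 lists of genes that work with the carriers and 8 lists of cell type markers (rows, with the number of measured genes), with bars for list medians, dashed lines at 2-fold and open points for genes listed at 0 in a library. The partner lists have medians between -0.42 and 0.39, while the white adipocyte markers have a median of 2.54 and the slow fibre markers one of 3.11.

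Skeletal muscle markers were high in both libraries and 7 of 7 lay within 2-fold, with Acta1 at 354522 FPKM in CR and 372424 FPKM in control. At least 2-fold higher in CR were 2 of 7 endothelial, 1 of 5 macrophage and 1 of 6 nerve and Schwann cell markers, beside 8.01% of all genes. Endothelial markers summed to 2256 FPKM in CR and 1487 FPKM in control, and macrophage markers to 445 FPKM in CR and 383 FPKM in control. Nerve and Schwann cell markers summed to 1048 FPKM in CR and 686 FPKM in control, with S100b listed at 0 in control. The part of these markers in the solute carrier values was not tested. Beside the 139 genes, the 34 mitochondrial carriers of the Slc25 family had 3 genes at least 2-fold higher in CR, 1 at least 2-fold lower and a median log2 ratio of 0.09. The 26 ABC transporters, pumps driven by ATP, had 1 higher, 5 lower and a median of -0.29. Over all genes, 8.01% were at least 2-fold higher and 10.7% at least 2-fold lower. Of the 32 Slc25 genes above 0 in both libraries, 2 were higher and 0 lower. Of the 24 such ABC transporters, 1 was higher and 3 lower, beside 6.15% and 6.85% of all such genes. With 1 library per group the differences between these families were not tested. The loci of 14 solute carriers overlap another named locus on the opposite strand, among them Slc2a12, Slc16a6, Slc3a2, Slc3a1, Slc7a10 and Slc30a2, and their values are uncertain.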

How the data were processed

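Poly(A) RNA was made into paired-end libraries with random priming and read at 76 bp, per the labels' protocols. TopHat 1.2.0, Cufflinks and Cuffdiff with build mm9 were used, per the submitters' processing notes; other versions, options and filters are not known here. The authors deposited FPKM per locus for each library. The lowest deposited value is exactly 1, and 98 of 101 control values between 1 and 2 but 0 of 77 between 2 and 3 carry over 6 digits, so 1 was subtracted. That offset is inferred from the values. Sums were 13608800 FPKM in CR and 12758500 FPKM in control, a scale with no stated reason, and the depth is unknown, so no counting interval is given.

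Of 23672 loci, those with 1 symbol were kept and summed by symbol, and 234 merged loci were left out. Log2 ratios used a pseudocount of 1 FPKM, over genes whose mean reached 1 FPKM. The calculation was tested on planted ratios. The alternatives were pseudocounts of 0.1 and 5 FPKM, filters (none, 10, 100 and 300 FPKM), genes above 0 in both libraries, centring on the median gene, rescaling without the 50 most abundant genes, the largest locus of a symbol, and leaving out genes only named after a carrier; the 300 FPKM filter and the last were chosen after seeing the data. Python 3.11.15, numpy 2.4.6, pandas 2.3.3 and matplotlib 3.10.9 were used.

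The members, cargo classes and lists were chosen with earlier results of these data known, and the class of genes only named after a carrier was set apart, and Slc17a5 moved to the last class, after the values were seen. A mitochondrial gene and a repeated entry were taken off the GLUT4 list at the same time. The text names genes averaging 300 FPKM or more, those past 2-fold with a mean of at least 50 FPKM, the most abundant of each class and a fixed set of well-known carriers, of which Slc4a1 is not analysed here. Some genes that these rules take are not reported here. Other genes, among them Slc7a10, Slc36a1, Slc38a9, Slc50a1 and genes listed at 0 with lower means, were named after their values were seen.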

Additional observations from a re-analysis of the deposited data

Results flagged for a closer look

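The 4 loci that merge a solute carrier with another gene lay outside the comparison, and all 4 stayed within 2-fold, a pair of them with more signal in CR than in control and the other two with less. The merged locus of Mrps6 and Slc5a3, the myo-inositol carrier, stood at 478.9 FPKM in CR and 255 FPKM in control. The merged locus of Gm14085 and Slc28a2, a nucleoside carrier, stood at 538 FPKM in CR and 457 FPKM in control. The merged locus of Slc12a9 and Trip6 stood at 236 FPKM in CR and 377 FPKM in control, and that of Slc22a21 and Slc22a5 at 199 FPKM in CR and 230.1 FPKM in control. The reads of the merged genes cannot be told apart, and none of these differences was tested.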

How the results depend on the processing

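The counts of 13 solute carriers at least 2-fold higher and 21 at least 2-fold lower in CR depended on how low and zero values were treated. With only genes above 0 in both libraries they were 8 and 10. Keeping genes that average 100 FPKM or more they were 5 and 8, beside 4.95% and 5.29% of all genes of that level, and at 300 FPKM or more 1 and 1; these settings test fewer genes. Under the other 8 settings the higher count was 13 or 14 and the lower count between 20 and 22. Among these, no filter, the 10 FPKM filter and the largest locus could not change the solute carrier counts. Every solute carrier averaged over 10 FPKM, the lowest being Slc9a3r1 at 11.8 FPKM, and had 1 locus. The median log2 ratio lay between -0.24 (rescaled without the 50 most abundant genes, where that of all genes was -0.10) and -0.07 (mean of at least 300 FPKM). Among single genes, Slc41a3 passed 2-fold with a pseudocount of 0.1 FPKM or centring, and 1 more gene with the rescaling; no gene past 2-fold lost that call or changed direction. With the rescaling, Slc2a4, Slc35a4, Slc35c1 and Slc44a2, near equal before it, moved to the other side of 0, as did Slc30a2, Slc35c2, Slc35e1 and Slc5a2 with centring. No paired analysis was possible because each group has 1 library. The unknown depth limits most the genes of low level and those listed at 0.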

Other observations

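Paralogs that sit side by side in the genome did not always share a ratio. Of the 139 genes, 6 pairs lie within 100000 bases of each other. Not all are paralogs, as they include Slc7a6 with Slc7a6os, only named after it, and Slc35b2 with Slc29a1 of another family. Slc36a2 and Slc36a1 on chromosome 11 lie 19263 bases apart with log2 ratios of 3.50 and -0.26. The exchangers Slc9a4 and Slc9a2 on chromosome 1 lie 50882 bases apart, with Slc9a4 listed at 0 in control and Slc9a2 at a log2 ratio of 0.12. The leucine and purine carriers Slc43a1 and Slc43a3 on chromosome 2 were closer, at -0.37 and -0.12, as were the copper carriers Slc31a2 and Slc31a1 on chromosome 4, at -0.25 and 0.19. These are single values with no replicate.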
